A study of Danio rerio with 3 samples.

Results

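Transcripts of chromatin modifiers and remodellers were compared between 3 cell populations sorted from zebrafish embryos. The genes were every row of the deposited expression table whose symbol begins with hdac, sirt, kat, ing, brd, kmt, setd, prdm, prmt, kdm, ezh, suz12, cbx, smarc, chd, dnmt or tet in the form used for these families, which gave 98 of 14428 genes. None of the 98 was a tet or kmt symbol, and genes of the same machinery under other names are given further on as separate lists. The embryos carried both the mpeg1:mCherry and the mpx:EGFP transgene, were otherwise labelled wild-type and untreated, and were taken at 72 hours post fertilization from a pool of about 1000. One library each was made from mCherry+ cells, EGFP+ cells and cells with neither reporter (double-negative), with more than 50000 cells collected per population. The mpeg1 promoter marks macrophages and the mpx promoter marks neutrophils, while the double-negative population is a mixture of all remaining embryonic cells. With 1 library per population values carry no replicate error, and no test was run and no p-value is given.

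DNA in the nucleus is wrapped around histones, and the enzymes described here place, remove or read chemical marks on histone tails and on cytosines, or use ATP to slide and evict nucleosomes. Acetylation by lysine acetyltransferases generally accompanies active genes and is reversed by deacetylases and sirtuins, and bromodomain proteins bind it. Methylation can accompany either activity or silencing according to the residue, as with polycomb marks read by chromobox proteins, and DNA methyltransferases act on cytosine. In blood development several of these factors, such as the SWI/SNF ATPases, the de novo DNA methyltransferases and the transcriptional repressor Prdm1, are known regulators of lineage choice in vertebrates.

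Levels are in FPKM, a fragment count divided by transcript length and by library size, so they can be compared between genes. Unless named otherwise, series of 3 levels are FPKM in the order mCherry+, EGFP+ and double-negative. Ratios are log2 of (FPKM + 1), which understates differences of low genes. The endogenous reporter genes matched the sort: mpeg1 stood at 1396, 9.92 and 2.84, and mpx at 55.8, 12480 and 3.10. Summed FPKM of 14 macrophage markers was 9083, 1058 and 21.8, and of 11 neutrophil markers 1038, 40989 and 62.0, with none of these markers at 0 in any library. Summed FPKM of 11 pan-leukocyte markers was 2493, 6311 and 78.3, with spi1b at 0 in double-negative cells, and that of 13 erythroid and 13 epidermal markers was 217, 311 and 4344 and 1237, 1696 and 4527. Most skeletal muscle genes went the other way, with the summed FPKM of 21 higher in both reporter libraries (8613, 11939 and 4494). At least 2-fold above double-negative cells were 8 in mCherry+ and 12 in EGFP+ cells (all genes 19.9% and 21.2%), and 2 and 1 were lower (24.1% and 25.0%). Their median log2 ratios were 0.75 and 1.16. With libraries set to an equal FPKM sum these were 0.08 and 0.20, against −0.579 and −0.771 over all genes. These marker levels move with every comparison below between a reporter population and double-negative cells, and their part in the values was not tested. Across 47 housekeeping genes the log2 ratio without a pseudocount had an SD of 0.56 when mCherry+ was set over double-negative cells. That SD was 0.78 with EGFP+ over double-negative cells and 0.64 with mCherry+ over EGFP+ cells, so a 2-fold difference, or 1 on this scale, is less than 2 such SDs. It is a spread across different genes between single libraries, any real differences of those genes included, and does not measure replicate error. Among the 5361 genes that reached an FPKM of 5 in all libraries, the median log2 ratio was shifted by 0.38, 0.48 and −0.11 in the same order of pairs. Ratios after division by that shift are given as median-ratio scaled values. The comparisons of the reporter populations with double-negative cells share the double-negative library and are not independent.

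Most chromatin genes were present in every population at moderate levels. Of the 98, 95 were at or above an FPKM of 1 in mCherry+, 93 in EGFP+ and 97 in double-negative cells, and the median level was 8.88, 8.80 and 9.74 against 4.48, 4.62 and 5.69 over all genes. No member was listed at 0 in all libraries, and a single value of 0 occurred, that of prdm8 in mCherry+ cells. The highest were brd2a in mCherry+ cells (126), cbx7a in EGFP+ cells (178) and cbx3a in double-negative cells (108). Among the 8 highest in every library were the chromobox genes cbx3a (HP1 type) and cbx7a (polycomb type). The main arginine methyltransferase gene prmt1 and the SWI/SNF subunit gene smarce1 were so as well. At the low end, prdm14, whose mammalian counterpart is a germline and pluripotency factor, did not reach 1 in any library (0.994, 0.531 and 0.356). It did not enter the ratios, which left 97 members.

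**Figure D1:**
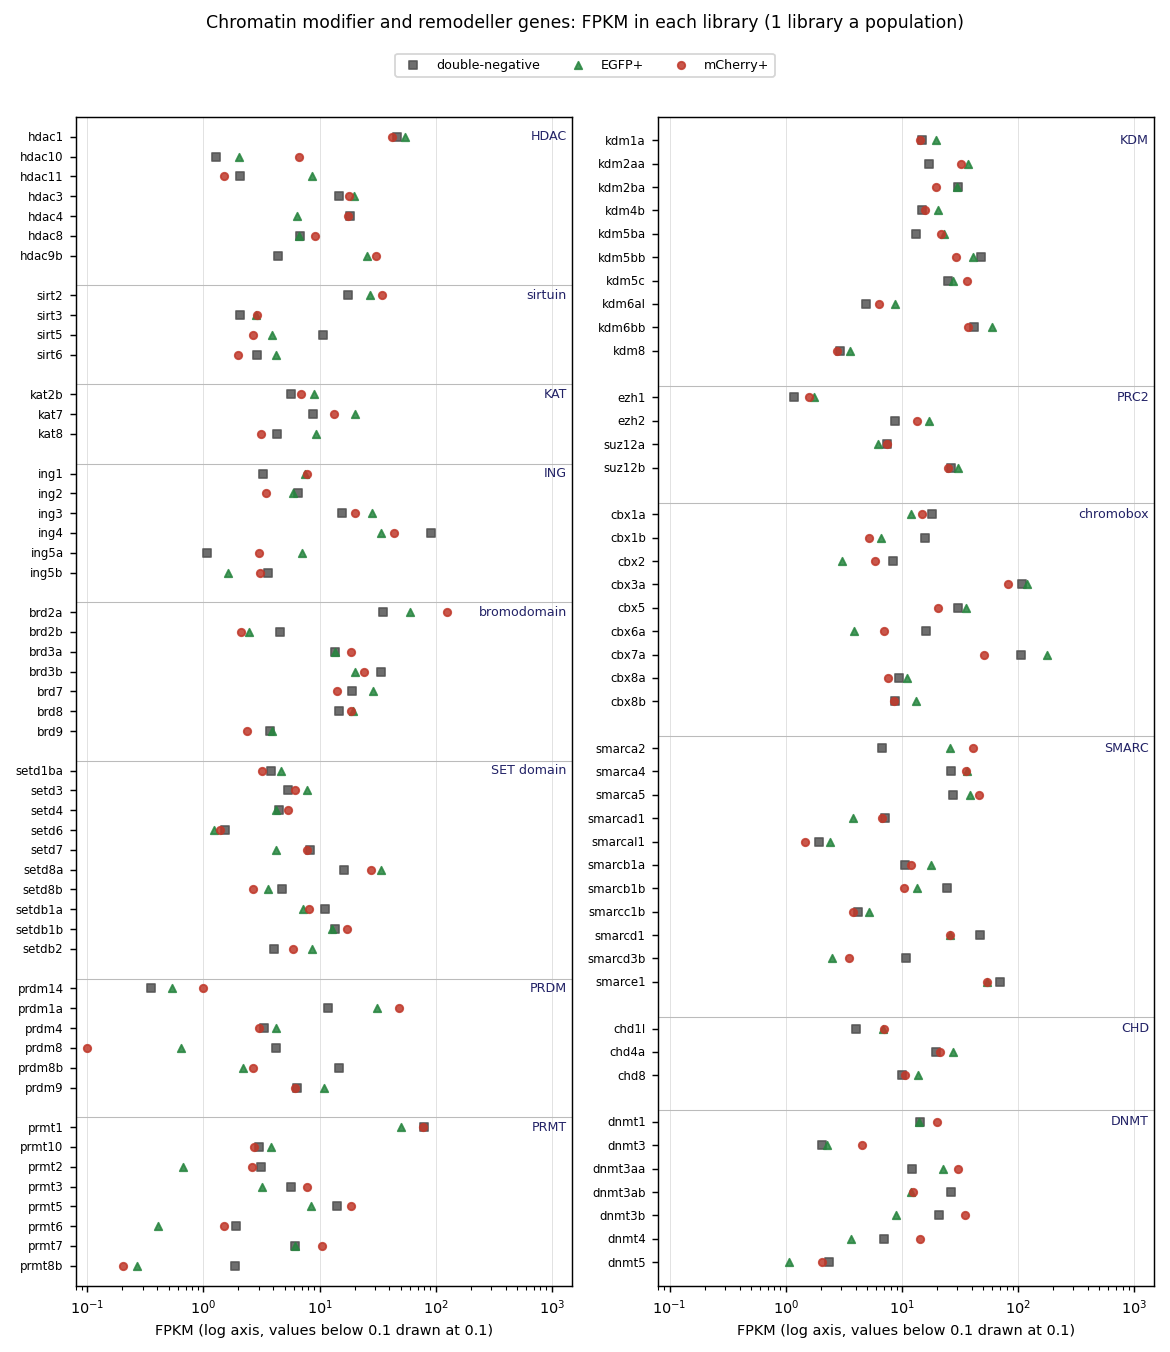
Level of 95 of the 98 chromatin genes in FPKM (log axis) in the mCherry+ (red circles), EGFP+ (green triangles) and double-negative (grey squares) libraries, grouped by family, 1 library a population. For most genes the 3 symbols lie close together, while hdac9b and smarca2 have the double-negative symbol far to the left and prdm8b has it far to the right.

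Differences between populations were less frequent among these genes than over the whole table. Of the 97, 93 stayed within 4-fold in all 3 pairs (95.9%), against 76.6% of the 12285 genes measured, and 63 stayed within 2-fold in all pairs (64.9%), against 36.8%. In mCherry+ over double-negative cells, 2 members were at least 4-fold higher, where the share over all genes was 8.18%, and 2 at least 4-fold lower, where it was 7.36%. At 2-fold the counts were 8 higher (all genes 19.9%) and 11 lower (all genes 24.1%). In EGFP+ over double-negative cells, 1 member was at least 4-fold higher (all genes 8.53%) and 1 lower (all genes 5.38%), with 10 at least 2-fold higher (all genes 21.2%) and 15 lower (all genes 25.0%). Between the reporter populations no member passed 4-fold in either direction, where the shares over all genes were 3.90% and 3.34%. There 8 members were at least 2-fold higher in mCherry+ cells (all genes 12.0%) and 4 lower (all genes 13.3%). The members also had fewer low values than the table, since 95.9% of them and 77.1% of all measured genes had an FPKM of 1 or more in every library. Among genes with such values in every library, the 2-fold counts for mCherry+ over double-negative were 8 of 93 members higher (all genes 21.3%) and 9 lower (all genes 18.2%). In EGFP+ over double-negative they were 10 higher (all genes 23.3%) and 11 lower (all genes 19.5%), and in mCherry+ over EGFP+ 7 higher (all genes 10.7%) and 4 lower (all genes 12.0%).

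The split of these calls moved with library scaling. For mCherry+ over double-negative cells, the 8 higher and 11 lower members at 2-fold became 6 and 16 after median-ratio scaling, and 6 and 24 when every library was set to an equal FPKM sum. The split over all genes moved as well, from 19.9% higher and 24.1% lower to 14.0% and 29.8%, then 11.1% and 35.2%. For EGFP+ over double-negative cells, the 10 and 15 members became 4 and 25, then 2 and 34, and the shares over all genes went from 21.2% and 25.0% to 14.1% and 33.0%, then 9.38% and 42.2%. For mCherry+ over EGFP+ cells, the 8 and 4 members became 8 and 3, then 11 and 3, and the shares over all genes went from 12.0% and 13.3% to 13.6% and 11.8%, then 16.8% and 9.71%. At 4-fold the 2 higher and 2 lower members of mCherry+ over double-negative stayed at 2 and 2, then became 0 and 3, and the 1 and 1 of EGFP+ over double-negative became 0 and 3, then 0 and 5.

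**Figure D2:**
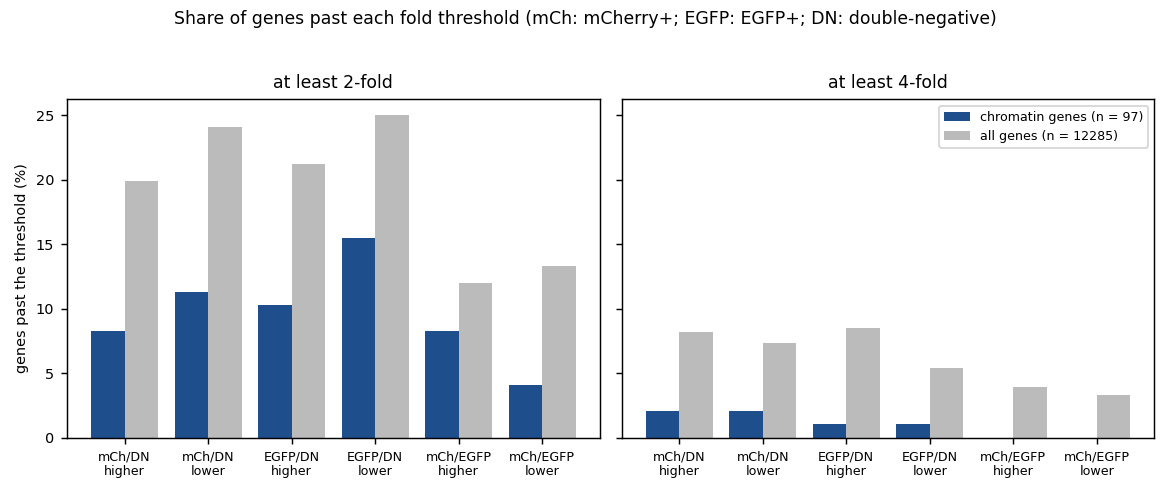
Percentage of the 97 chromatin genes (blue) and of all 12285 measured genes (grey) at least 2-fold (left) or at least 4-fold (right) higher or lower in each pair of libraries. The blue bar is the shorter in every pair and direction, for example 2.06% against 8.18% for genes at least 4-fold higher in mCherry+ than in double-negative cells.

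The deacetylase families held the member with the highest ratio in both comparisons with double-negative cells. The class IIa deacetylase gene hdac9b, whose products are signal-dependent corepressors, stood at 30.4, 25.7 and 4.39, which gave log2 ratios of 2.54 for mCherry+ and 2.31 for EGFP+ over double-negative cells (2.17 and 1.85 after median-ratio scaling). The other class IIa gene in the table, hdac4, was at 17.6, 6.45 and 18.3, so that it was low in EGFP+ cells alone. Reporter populations also differed in the less studied deacetylase genes. The polyamine deacetylase gene hdac10 was highest in mCherry+ cells (6.68, 2.03 and 1.27) and the class IV gene hdac11 in EGFP+ cells (1.51, 8.65 and 2.08). By contrast the class I genes, which form the catalytic core of the NuRD, SIN3 and NCoR corepressors, were nearly level: hdac1 stood at 42.3, 54.4 and 46.8 and hdac3 at 17.9, 19.8 and 14.7. The class I gene hdac8, whose product acts on cohesin, was at 9.17, 6.61 and 6.85. Among the sirtuins, which need NAD+, the mitochondrial desuccinylase gene sirt5 was lower in both reporter libraries (2.64, 3.88 and 10.7), and the tubulin deacetylase gene sirt2 was highest in mCherry+ cells (34.2, 27.1 and 17.7). The remaining sirtuin genes sirt3 and sirt6 lay between 1.97 and 4.18 in all libraries.

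The acetyltransferase genes were highest in EGFP+ cells as deposited, while with equal FPKM sums 2 of the 3 stayed above double-negative cells. All 3 in the table were lower in mCherry+ than in EGFP+ cells, as deposited and under both scalings. As deposited, so were 6641 of the 12285 genes measured. The log2 ratios for this pair were −1.33 for kat8, −0.58 for kat7 and −0.32 for kat2b. With equal FPKM sums they were −1.11, −0.31 and −0.06. The H4 acetyltransferase gene kat8, the MOF enzyme, stood at 3.11, 9.36 and 4.33, the HBO1 gene kat7 at 13.3, 20.3 and 8.71, and the PCAF gene kat2b at 6.98, 8.93 and 5.73. Genes of ING proteins, subunits of acetyltransferase and deacetylase complexes that read methylated histone H3, were divided, with 3 of 6 above and 3 below double-negative cells in each comparison, or 2 and 4 with equal FPKM sums. Their largest level was that of ing4 in double-negative cells, 90.7, against 44.0 in mCherry+ and 33.8 in EGFP+ cells. The ing1 gene went the other way (7.82, 7.48 and 3.24), and ing5a was highest in EGFP+ cells (2.99, 7.11 and 1.08). For ing2 (3.46, 5.96 and 6.55) and ing3 (20.4, 28.4 and 15.5) the differences from double-negative cells stayed under 2-fold.

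Among readers of acetylated histones, the BET gene brd2a was highest in mCherry+ cells. It stood at 126, 60.0 and 35.2, and its log2 ratio for mCherry+ over double-negative cells was 1.81 (1.43 after median-ratio scaling), just short of 4-fold. Its copy and the brd3 genes differed by less: brd2b was at 2.11, 2.49 and 4.56, brd3a at 18.6, 13.5 and 13.6, and brd3b at 24.2, 20.1 and 33.7. The PBAF subunit gene brd7 was highest in EGFP+ cells (14.1, 29.1 and 19.1), the acetyltransferase-complex gene brd8 was at 18.7, 19.3 and 14.7, and the non-canonical BAF gene brd9 stayed between 2.37 and 3.88.

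**Figure D3:**
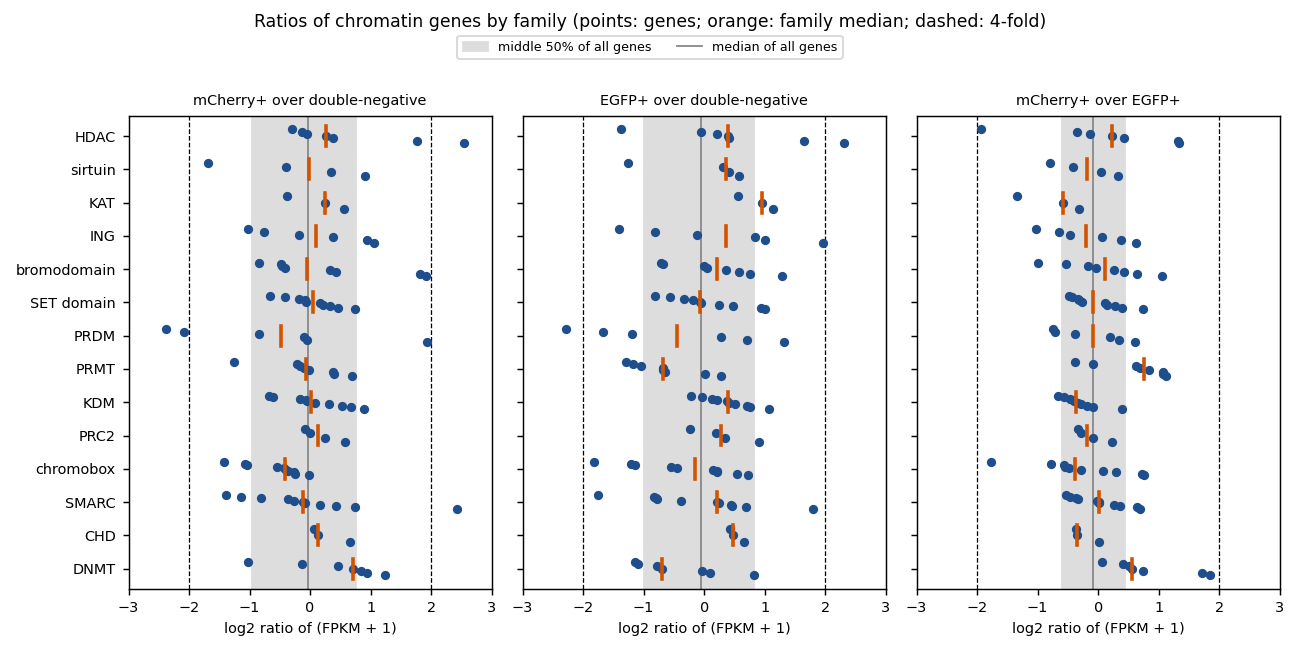
Log2 ratio of (FPKM + 1) of each chromatin gene (blue points) by family in the 3 pairs of libraries, with the family median (orange), the middle 50% of all measured genes (grey band), their median (grey line) and 4-fold (dashed lines). Most points fall inside or near the grey band, all 10 chromobox points lie left of 0 for mCherry+ over double-negative cells, and all 7 DNA methyltransferase points lie right of 0 for mCherry+ over EGFP+ cells.

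Histone methyltransferase genes of the SET family were close to level. Of all genes measured, 56.0% stayed within 2-fold in mCherry+ over double-negative, 74.7% in mCherry+ over EGFP+ and 53.8% in EGFP+ over double-negative cells. None of the 10 SET family genes passed 2-fold in the first 2 of these pairs, and 1 did in EGFP+ over double-negative cells. That gene was setd8a, named kmt5aa in RefSeq, which encodes an enzyme that monomethylates histone H4 and stood at 27.8, 33.8 and 16.3. The H3K9 methyltransferase gene setdb2 (5.90, 8.60 and 4.01) was close to it. On the FPKM + 1 scale their log2 ratios for EGFP+ over double-negative cells were 1.01 for setd8a and 0.94 for setdb2. After median-ratio scaling these were 0.55 and 0.52. The H3K9 methyltransferase genes setdb1a (8.10, 7.20 and 11.2) and setdb1b (17.3, 12.9 and 13.6), used in retroelement silencing, differed by less. The COMPASS-type gene setd1ba was at 3.22, 4.69 and 3.82, the actin histidine methyltransferase gene setd3 at 6.09, 7.86 and 5.33, and setd7 at 7.79, 4.24 and 8.19. The genes setd4, setd6 and setd8b lay between 1.22 and 5.34 in all libraries.

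PRDM genes, which join a PR domain related to the SET domain to zinc fingers, included the members lowest against double-negative cells. The gene prdm8b stood at 2.68, 2.198 and 14.6, giving log2 ratios of −2.08 and −2.29 for the reporter populations over double-negative cells (−2.35 and −2.60 after median-ratio scaling). A further row with the symbol prdm8 was listed at 0 in mCherry+ cells, with 0.636 in EGFP+ and 4.18 in double-negative cells, and no fold is given against its value of 0. It counts among the members at least 4-fold lower in mCherry+ cells on the FPKM + 1 scale, where its ratio depends on the pseudocount. Opposite to these, prdm1a, which encodes the repressor Blimp1, was at 47.9, 31.1 and 11.8, with log2 ratios of 1.94 and 1.33 for mCherry+ and EGFP+ over double-negative cells. After median-ratio scaling these were 1.56 and 0.865, so the ratio for EGFP+ cells fell below 2-fold. Further PRDM genes stayed under 4-fold in every pair, as did 76.6% of all genes measured. The gene prdm4 was at 3.02, 4.24 and 3.32, and prdm9, whose mammalian counterpart places recombination sites in meiosis, at 6.13, 11.02 and 6.39. Summed FPKM of 17 neuronal markers was 173 in mCherry+, 289 in EGFP+ and 1052 in double-negative cells, 15 and 6 of 16 measured were at least 4-fold lower in mCherry+ and EGFP+ than in double-negative cells, and gap43 was at 0 in every library. Their part in the values of prdm8b and other genes high in double-negative cells was not tested, and in bulk RNA fewer cells of a type and less RNA per cell cannot be told apart.

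Most arginine methyltransferase genes were lower in EGFP+ than in mCherry+ cells. Their median log2 ratio for mCherry+ over EGFP+ cells was 0.76, against −0.08 over all genes. As deposited 6 of 8 were higher in mCherry+ cells, as were 5513 of the 12285 genes measured. The count stayed at 6 under both scalings, which raise the ratios of this pair and could not lower it. For EGFP+ over double-negative cells the median was −0.68, against −0.05 over all genes, and −1.11 against −0.42 after median-ratio scaling. The gene prmt5, which encodes the main symmetric dimethylase, stood at 18.6, 8.38 and 14.1, and prmt1, the main asymmetric enzyme, at 78.1, 50.2 and 78.7. Ribosomal protein methyltransferase gene prmt3 followed the same order (7.82, 3.195 and 5.69). The gene prmt7 was higher in mCherry+ cells and nearly level in the other libraries (10.6, 6.18 and 6.14). Genes prmt2 (2.63, 0.672 and 3.10) and prmt6 (1.51, 0.402 and 1.90) were below 1 in EGFP+ cells alone, and prmt8b, whose mammalian counterpart is brain-enriched, was below 1 in both reporter libraries (0.202, 0.270 and 1.86). The second gene not higher in mCherry+ than in EGFP+ cells, beside prmt8b, was prmt10, now prmt9, at 2.71, 3.83 and 3.002.

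Demethylase genes showed small differences, and most were lower in mCherry+ than in EGFP+ cells. Of all genes measured, 76.6% stayed within 4-fold and 36.8% within 2-fold in all pairs. None of the 10 demethylase genes passed 4-fold in any pair, and 1, kdm2aa, passed 2-fold (32.5, 36.9 and 17.1), in EGFP+ over double-negative cells. Its log2 ratio there was 1.07, or 0.605 after median-ratio scaling and 0.14 with equal FPKM sums. The median log2 ratio of the 10 demethylase genes for mCherry+ over EGFP+ cells was −0.37, against −0.08 over all genes. As deposited, 6641 of the 12285 genes measured were lower in mCherry+ cells. Among the demethylase genes 9 of 10 were lower there, 8 after median-ratio scaling and 7 with equal FPKM sums. The highest in the reporter libraries was kdm6bb, an H3K27 demethylase gene of the JMJD3 type whose mammalian counterpart is inducible in macrophages, at 37.4, 60.1 and 42.0. The related UTX-type gene kdm6al stood at 6.34, 8.67 and 4.94. The LSD1 gene kdm1a, needed in zebrafish for blood cell maturation, was at 14.4, 19.7 and 14.9. The H3K4 demethylase gene kdm5c was the 1 member above EGFP+ in mCherry+ cells (36.4, 27.5 and 25.1). The PRC1-linked gene kdm2ba was at 19.6, 29.6 and 30.4, the H3K9 and H3K36 demethylase gene kdm4b at 15.9, 20.4 and 15.01, and kdm8 between 2.77 and 3.57.

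Polycomb repressive complex 2 was represented by its catalytic subunit genes ezh1 and ezh2 and its scaffold genes suz12a and suz12b. The gene ezh2 was at 13.4, 17.1 and 8.71 and ezh1 at 1.60, 1.76 and 1.18, so ezh2 made up 89.4%, 90.7% and 88.1% of their summed FPKM. None of the 4 passed 2-fold in any pair, and 36.8% of all genes measured stayed within 2-fold in all pairs. The gene suz12a stood at 7.48, 6.20 and 7.46 and suz12b at 24.9, 30.6 and 26.5. Because ezh2 and the maintenance methyltransferase gene dnmt1 follow proliferation in many tissues, cell cycle genes were measured beside them. Summed FPKM of 25 such genes was 476, 593 and 469, with mcm2 at 0 in every library. Their median log2 ratio was 0.02 and 0.00 for mCherry+ and EGFP+ over double-negative cells, or −0.34 and −0.38 after median-ratio scaling. Over all genes the scaled medians were −0.35 and −0.42. Of 24 measured, 0 were past 4-fold in any pair, and 76.6% of all genes measured stayed within 4-fold in all pairs. The part of the cell cycle genes in the values of ezh2 and dnmt1 was not tested.

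Chromobox genes encode readers of methylated H3, either in heterochromatin (HP1 type) or in PRC1 (polycomb type). All 10 were below the double-negative level in mCherry+ cells as deposited, as were 6305 of the 12285 genes measured. Both scalings lower the mCherry+ over double-negative ratios, so this count could not fall under them. The median log2 ratio was −0.42 against −0.04 over all genes, or −0.77 against −0.35 after median-ratio scaling. Of the 10, 3 were at least 2-fold lower (all genes 24.1%). In EGFP+ cells 5 were below and 5 above the double-negative level, which became 8 and 2 after median-ratio scaling and 10 and 0 with equal FPKM sums. The polycomb type gene cbx7a separated the reporter populations most, at 51.4 in mCherry+ and 178 in EGFP+ cells, with 107 in double-negative cells. Its log2 ratio for mCherry+ over EGFP+ cells was −1.77 (−1.66 after median-ratio scaling). The polycomb type genes cbx2 (5.88, 3.05 and 8.32) and cbx6a (7.06, 3.85 and 16.1) had the opposite order between reporter populations and were highest in double-negative cells. The gene cbx8a was at 7.66, 11.04 and 9.44, and cbx8b at 8.59, 13.3 and 8.76. Of the HP1 type, cbx1b was low in both reporter libraries (5.24, 6.56 and 15.8), cbx5 was at 20.4, 35.5 and 30.4, cbx3a at 81.9, 121 and 108, and cbx1a at 14.96, 12.04 and 18.0.

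DNA methyltransferase genes were all higher in mCherry+ than in EGFP+ cells. This held for 7 of 7 as deposited, where 5513 of the 12285 genes measured were higher in mCherry+ cells. Both scalings raise the mCherry+ over EGFP+ ratios, so this count could not fall under them. The median log2 ratio was 0.56 against −0.08 over all genes, or 0.64 against 0.00 after median-ratio scaling. Of the 7, 2 passed 2-fold (all genes 12.0%). The pair concerned was dnmt3b, at 35.0, 8.97 and 20.9, and dnmt4, at 14.4, 3.66 and 6.98, with log2 ratios of 1.85 and 1.72. Both symbols are older names: RefSeq gives dnmt4 as dnmt3bb.1 and dnmt3b as a synonym of both dnmt3ba and dnmt3bb.1, and dnmt3 (4.50, 2.27 and 2.05) and dnmt5 (2.06, 1.07 and 2.36) as dnmt3bb.2 and dnmt3bb.3. Reads of such close copies can be divided between rows, so the single values are uncertain. The dnmt3a type genes, whose human counterpart is often mutated in myeloid leukaemia, had opposite patterns: dnmt3aa was at 30.5, 22.8 and 12.4, and dnmt3ab at 12.5, 11.9 and 26.5. The maintenance enzyme gene dnmt1 was at 20.3, 14.0 and 14.4.

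Remodeller genes included the second member at least 4-fold higher in mCherry+ cells. SWI/SNF complexes, called BAF in animals, are built around 1 of the ATPases encoded by smarca4 and smarca2. The gene smarca2 stood at 40.8, 25.8 and 6.74, with log2 ratios of 2.43 and 1.79 for mCherry+ and EGFP+ over double-negative cells (2.06 and 1.33 after median-ratio scaling), whereas smarca4, named smarca4a in RefSeq, was at 36.0, 36.4 and 26.5. The ISWI ATPase gene smarca5, required for blood formation in mice, was at 46.6, 38.6 and 27.6. Several non-ATPase subunits were highest in double-negative cells. The gene smarcd3b, of a subunit used in heart and neural progenitors, stood at 3.53, 2.51 and 10.9, smarcd1 at 26.2, 25.9 and 46.9, and smarcb1b at 10.5, 13.5 and 24.3, beside smarcb1a at 12.05, 17.8 and 10.6. The core subunit genes smarce1 (54.5, 54.2 and 70.8) and smarcc1b (3.82, 5.22 and 4.23) differed by less than 2-fold. Outside the BAF complex, smarcad1 was at 6.72, 3.78 and 7.15 and the annealing helicase gene smarcal1 at 1.47, 2.42 and 1.95. The CHD remodeller genes were nearly level, with the NuRD ATPase gene chd4a at 21.4, 27.7 and 19.6, chd8 at 10.6, 13.8 and 10.04, and chd1l at 6.96, 6.88 and 4.01.

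Subunits of the same complexes under other symbols were divided, some differing between libraries and others near level. They come from a selection of 34 BAF and PBAF symbols made after values were seen, of which 27 were found. The double PHD finger gene dpf2, used in BAF complexes of many tissues, stood at 60.4, 35.1 and 8.52, while dpf1, used in neurons, stood at 2.72, 2.16 and 14.4, and dpf3 at 2.30, 6.48 and 13.3. The BCL7 genes divided in the same way: bcl7bb was at 21.6, 47.6 and 3.26, bcl7ba at 24.9, 20.6 and 6.74, and bcl7a at 13.1, 9.13 and 40.1. Genes of the BCL11 type, known in neurons and lymphocytes, were highest in double-negative cells, with bcl11aa at 3.93, 3.74 and 16.0, bcl11ab at 4.23, 6.89 and 16.5 and bcl11ba at 2.90, 15.4 and 17.4. The neuronal subunit gene actl6b was below 1 in every library, and its broadly expressed counterpart actl6a stood at 32.3, 46.7 and 44.7. Further subunit genes stayed under 2-fold in every pair, as did 36.8% of all genes measured. They were dpf2l (10.2, 11.9 and 12.9), phf10 (3.63, 3.51 and 5.62), ss18 (13.9, 24.6 and 17.4), arid1aa (22.0, 33.3 and 17.7), arid2 (10.8, 10.9 and 9.40) and pbrm1l (13.8, 18.5 and 19.4). The neuronal marker levels given above bear on dpf1, bcl11aa, bcl11ab and smarcd3b in the same way, and on bcl11ba for mCherry+ cells. The part of these markers was not tested. Between EGFP+ and double-negative cells bcl11ba was nearly level, with a log2 ratio of −0.16.

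**Figure D4:**
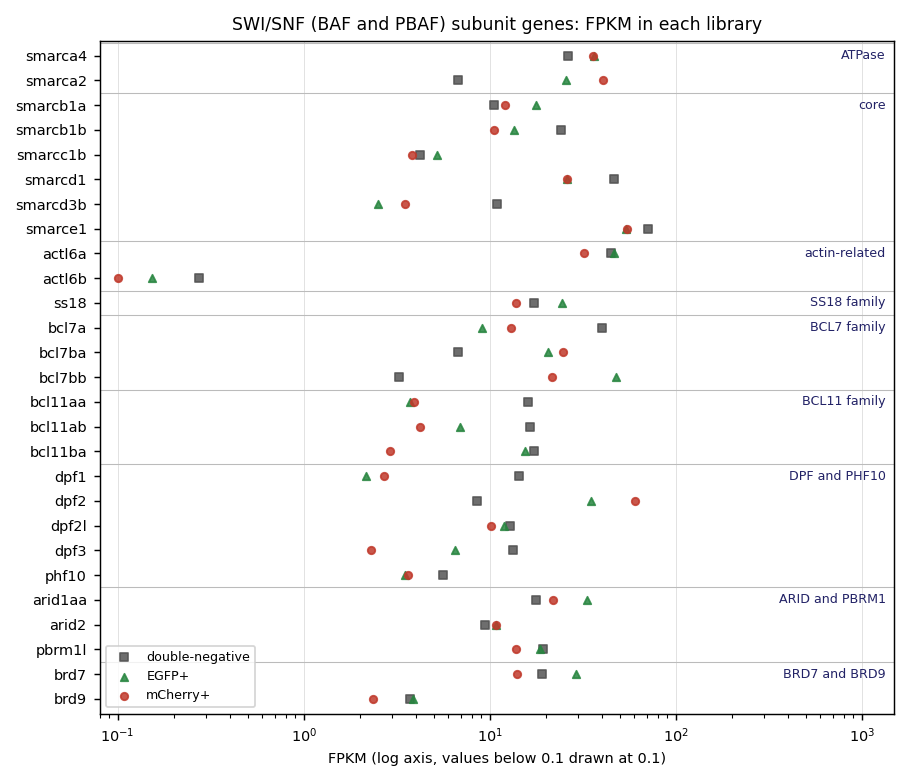
Level in FPKM (log axis) of 27 SWI/SNF subunit genes in the mCherry+ (red circles), EGFP+ (green triangles) and double-negative (grey squares) libraries, grouped by subunit type, with actl6b in mCherry+ cells at 0 and drawn at 0.1. The genes smarca2, dpf2, bcl7ba and bcl7bb have both reporter symbols to the right of the double-negative symbol, and bcl7a, bcl11aa, dpf1 and smarcd3b have both to the left.

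The share of each copy within a pair of duplicated genes is a ratio inside a library and does not depend on library scaling. Zebrafish kept many gene pairs from a genome duplication, and 11 pairs with symbols ending in a and b were found among the members. In 4 of the 11 the copy with the higher level differed between libraries, and in 5 the share of the a copy moved by 20 percentage points or more. Such pairs were not counted over the whole table, so whether these counts are particular to chromatin genes is unknown. The widest range was that of ing5a, which made up 49.5% of the summed FPKM of ing5a and ing5b in mCherry+, 81.4% in EGFP+ and 23.0% in double-negative cells, although these genes were low. For dnmt3aa the share was 71.0%, 65.6% and 31.8%, so the reporter libraries held mostly dnmt3aa and the double-negative library mostly dnmt3ab. The SWI/SNF core gene smarcb1a took 53.3%, 56.8% and 30.3% of its pair, with the same exchange of the higher copy. The pair cbx8a and cbx8b crossed the midpoint by a small margin (47.1%, 45.4% and 51.9%).

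In the remaining pairs 1 copy led in every library. The share of brd2a was 98.4%, 96.0% and 88.5%, that of setd8a 91.3%, 90.4% and 77.4%, and that of cbx1a 74.1%, 64.7% and 53.3%. The a copies of brd3 (43.4%, 40.2% and 28.8%) and kdm5b (42.2%, 35.9% and 21.5%) were the lower ones throughout, and their share was lowest in double-negative cells. For kdm5b the levels were 21.6, 23.0 and 13.2 for kdm5ba and 29.5, 41.1 and 48.2 for kdm5bb. The setdb1a share had the opposite order (31.8%, 35.8% and 45.0%), and that of suz12a had the narrowest range of the 11 (23.1%, 16.9% and 22.0%). Among related genes that are not such duplicates, chosen after their values were seen, smarca2 made up 53.1%, 41.5% and 20.3% of the sum of smarca2 and smarca4, and hdac9b made up 63.4%, 79.9% and 19.3% of the sum of hdac9b and hdac4. Reads of similar copies could have been divided between them in quantification, and no interval can be given for these shares because read depth is unknown.

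**Figure D5:**
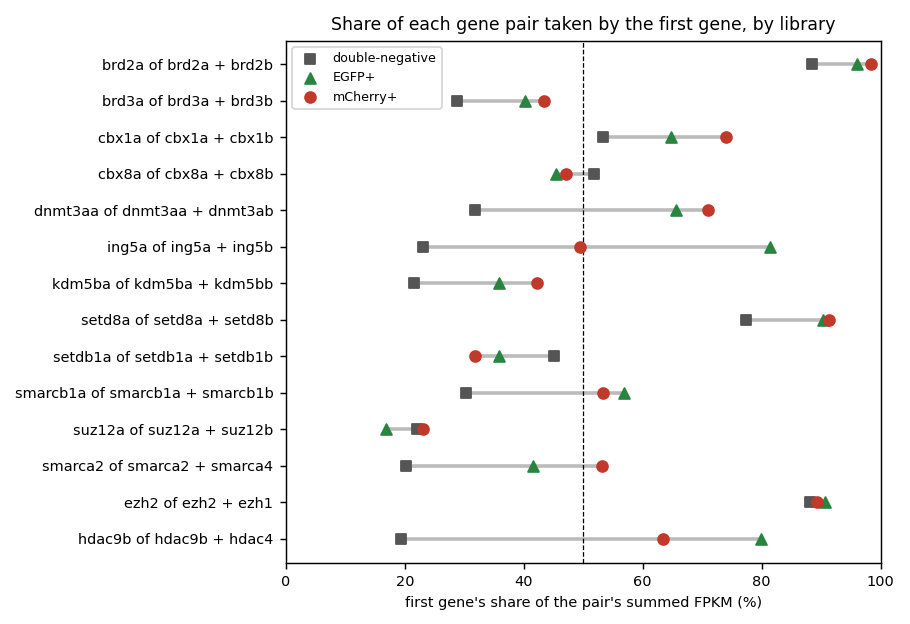
Share of the first gene in the summed FPKM of a gene pair (%), in the mCherry+ (red circles), EGFP+ (green triangles) and double-negative (grey squares) libraries, for 11 duplicate pairs and, in the lowest 3 rows, pairs of related genes. The reporter symbols lie on the other side of the dashed line at equal shares from the double-negative symbol for cbx8a, dnmt3aa, smarcb1a and hdac9b.

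Genes of the same machinery under symbols outside these families were summarised from 9 lists. They held 347 symbols, of which 197 were found and 191 measured. At least 4-fold higher than double-negative cells were 7 in mCherry+ cells (3.66%) and 8 in EGFP+ cells (4.19%), and 5 (2.62%) and 3 (1.57%) were lower. Between the reporter populations 1 was higher and 3 were lower in mCherry+ cells. Like those of the 98 genes, these shares lay below the shares over all genes given above. Their median log2 ratios were −0.08, 0.18 and −0.22 for mCherry+ over double-negative, EGFP+ over double-negative and mCherry+ over EGFP+ cells, or −0.39, −0.23 and −0.12 after median-ratio scaling.

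Within these lists, 1 of 28 corepressor genes was past 4-fold, in mCherry+ over double-negative cells (all genes 8.18%). It was the methyl-CpG binding NuRD gene mbd2 (94.1, 57.3 and 15.8). Its relative mbd3b was lower in both reporter libraries (9.54, 9.96 and 30.4), and the neural CoREST gene rcor2 stood at 3.02, 4.59 and 13.7. The other polycomb genes, 20 measured, had pcgf5b of PRC1 at 9.15, 21.1 and 0.695 and the Polyhomeotic-type gene phc2b at 1.35, 1.86 and 8.81. Of 27 measured methyltransferase and COMPASS genes 1 passed 4-fold, in EGFP+ over double-negative cells (all genes 8.53%). It was the muscle methyltransferase gene smyd1a (29.0, 38.3 and 8.54), with a log2 ratio of 2.04, or 1.58 after median-ratio scaling. Its copy smyd1b was below double-negative cells in both reporter libraries (1.72, 7.01 and 8.27). Summed FPKM of 21 skeletal muscle genes, smyd1a and smyd1b among them, was 8613, 11939 and 4494, none at 0. Their part in the values of smyd1a was not tested. Among 10 demethylase genes jmjd4 was at 2.77, 0.305 and 6.88. None of 22 further acetylation genes passed 4-fold in any pair, and 76.6% of all genes measured stayed within 4-fold in all pairs.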

How the data were processed

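The authors deposited 1 table of FPKM values per gene for 3 libraries. The tools named, per the submitters' processing notes, are TopHat2 2.0.11, Cufflinks 2.2.1 and cutadapt, with build danRer7; settings and annotation were not given in the sources used here. Per the labels' protocols, each library started from 50 ng of total RNA depleted of ribosomal RNA and amplified with a SMARTer kit. Because FPKM is relative to library size, very abundant transcripts depress the values of other genes. FPKM sums were 571639, 696949 and 356886 for mCherry+, EGFP+ and double-negative. Depth is unknown: among 219 to 329 genes with an FPKM under 0.5 in both libraries of a pair, the commonest ratio held 1.82% to 2.46%, so no step of whole reads was recovered. A pseudocount of 1 was used, genes had to reach an FPKM of 1 in any library, and genes at least 4-fold or 2-fold apart were counted (Python 3.11.15, pandas 2.3.3), after a check on simulated data. Of 98 symbols, 86 are current in RefSeq (GRCz12tu, names only), 10 older for 1 gene, 1 older for several and 1 unmatched. The genes, lists and alternatives were chosen with earlier results of these data known. Named were all members past 4-fold, the 8 highest and lowest ratios per pair and direction with an FPKM of 5 or more, the 8 highest levels per library, family extremes, duplicate pairs, all PRC2, dnmt and kdm6 genes, and at most 3 highest and 3 lowest of each other list. Further members and BAF subunit genes were named for completeness, after their values were seen. Of the members, 3 enter the counts and medians and are not reported here one by one.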

Additional observations from a re-analysis of the deposited data

How the results depend on the processing

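No paired analysis was possible because each population has 1 library. Members at least 4-fold higher in mCherry+ than in double-negative cells numbered 2, and 8 at a 2-fold threshold, 4 with a pseudocount of 0.1, and 0 with a pseudocount of 5 or equal FPKM sums. Over all genes the share was 8.18%, then 19.9%, 10.5%, 5.30% and 5.01% in the same order of settings. The 2 members at least 4-fold lower in that pair became 11 at 2-fold, 1 with a minimum FPKM of 10 and 0 with a pseudocount of 5. The shares over all genes were 7.36%, then 24.1%, 8.64% and 1.73%. In EGFP+ over double-negative cells the 1 higher became 10 at 2-fold, 3 with a pseudocount of 0.1 and 0 with a pseudocount of 5, median-ratio scaling or equal sums. All genes went from 8.53% to 21.2%, 10.8%, 5.56%, 5.76% and 4.18%. The 1 member lower in that pair became 15 at 2-fold, 6 with a pseudocount of 0.1, 3 with median-ratio scaling, 5 with equal sums and 0 with a pseudocount of 5. All genes went from 5.38% to 25.0%, 13.5%, 9.03%, 14.4% and 1.11%. In mCherry+ over EGFP+ cells the 0 higher became 8 at 2-fold and 1 with equal sums (dnmt3b), and the 0 lower became 4 at 2-fold and 2 with a pseudocount of 0.1. The all-gene share higher was 3.90%, then 12.0% and 4.98%, and the share lower 3.34%, then 13.3% and 6.71%. The members' median log2 ratio for mCherry+ over double-negative was −0.056, then 0.027 with a minimum FPKM of 10, −0.378 with median-ratio scaling and −0.581 with equal sums. For EGFP+ over double-negative it was 0.206, then −0.244 and −0.65 with these scalings, and for mCherry+ over EGFP+ −0.041, then 0.061 and 0.231. The scalings moved all genes too: their medians with equal sums were −0.579, −0.771 and 0.126. No member past 4-fold changed sign in the pair concerned under any alternative run, but none could. The scalings shift log2 ratios by at most 0.97, and a pseudocount or a filter cannot turn the sign of a ratio. A single library per population and unknown depth limit every value.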

Other observations

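Histone variant genes, in a list of 27 measured histone chaperones and variants, held the widest difference between the reporter populations among these chromatin lists. The H2A.Z gene h2afz was at 9.83 in mCherry+, 70.8 in EGFP+ and 85.3 in double-negative cells, and the related gene h2afva at 47.8, 8.40 and 26.3. Reads of these similar genes could have been divided between rows, so each value is uncertain. The macroH2A gene h2afy was highest in mCherry+ cells (8.36, 3.69 and 2.54), and the chaperone genes npm1a (87.2, 29.2 and 85.5) and npm3 (56.9, 18.2 and 37.7) were lowest in EGFP+ cells.

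Among 16 measured acetyl-lysine readers and elongation partners, 3 were at least 4-fold higher in each reporter library than in double-negative cells. The shares over all genes were 8.18% for mCherry+ and 8.53% for EGFP+ cells. They were the elongation factor genes ell (27.1, 16.8 and 2.56) and ell2 (27.6, 23.5 and 4.81) and trim33 (80.0, 114 and 16.6), which is required for blood formation in zebrafish. Not all of these calls held after median-ratio scaling, where 4-fold is a log2 ratio of 2. The scaled ratios for mCherry+ and EGFP+ over double-negative cells were 2.62 and 1.87 for ell, 1.93 and 1.62 for ell2, and 1.82 and 2.23 for trim33. In the list of DNA methylation partners, 9 measured, gadd45aa was at 14.9, 71.3 and 6.18 and gadd45ba at 179, 74.7 and 116, so these stress-induced genes were ordered oppositely in the reporter populations.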
